A study of Mus musculus with 6 samples.

Results

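The genes described here are the 35 members of the cholesterol synthesis and SREBP pathway, taken by gene symbol from the 55416 rows of a mouse expression table. All 35 were found, each with 1 Ensembl identifier, and all 35 passed the filter on low values (at least 1 FPKM in at least 3 libraries). FPKM is a fragment count scaled by transcript length and library total, so levels of different genes can be compared per length. The libraries came from wild-type (WT) primary neurons of mouse brain, which are neurons kept in culture, infected with an adeno-associated virus (AAV) whose cargo is driven by the synapsin promoter (hsyn), active in neurons. The miR-9-3p group received AAV-hsyn-miR-9-3p (3 libraries). The control group (3 libraries) received a vector called AAV-scramble in the treatment labels and AAV-hsyn-mCherry in the protocol text. Age, brain region and time after infection are not stated in the labels. The labels do not say that replicates were separate cultures or animals, so p-values reflect variation from library to library that may be only technical.

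Cholesterol is built from acetyl-CoA through mevalonate, farnesyl diphosphate, squalene and lanosterol. The genes of these steps share a transcriptional switch, the SREBP factors, which are held in the endoplasmic reticulum by SCAP and INSIG proteins when sterols are plentiful and are released for processing when sterols are low. SREBP-2 acts mainly on cholesterol genes and SREBP-1c on fatty acid genes, while oxysterols activate the LXR receptors, which raise sterol export. The brain makes its own cholesterol because lipoproteins do not cross the blood-brain barrier, and in the adult brain astrocytes are a main source for neurons.

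Of the 35 members, 3 fell in the miR-9-3p libraries, the desaturase gene Scd1 to 48.8% of its control level, the SREBP retention gene Insig2 to 63.5% and the sterol demethylase gene Msmo1 to 70.9%. Acaca, which encodes the enzyme that makes malonyl-CoA for fatty acid synthesis, rose to 129.9% of control, and the other 31 members did not pass the test. Calls rest on a limma adjusted p under 0.05 over the 14229 genes tested. The share of members called lower was 8.57%, where 2.4% of all tested genes were called lower, and the share called higher was 2.86%, where the background was 3.89%. Groups were fully apart, with no shared range, for 12 members that were lower (34.3%, background 16.7%) and for 2 that were higher (5.71%, background 18.2%). The median log2 fold change of the members was -0.19, and that of all tested genes was -0.02. These shares are descriptions, since genes of 1 pathway vary together and the members were chosen with earlier results of these data known.

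The sizes of the 4 changes moved little when 1 library was left out, with log2 fold changes of -1.08 to -0.96 for Scd1, -0.66 to -0.52 for Insig2, -0.54 to -0.42 for Msmo1 and 0.32 to 0.36 for Acaca. Without control library 3 limma called 1 member higher and 3 lower, of which Scd1 (adjusted p = 0.036) and Msmo1 (0.0469) were among the 4 above, while Fads2 and Abca1 were called in place of Insig2 and Acaca. Without any 1 of the other 5 libraries limma called 0 members and 0 genes of the whole table, although 2739 to 3654 genes then had an unadjusted p under 0.05. In these fits 7 to 10 members were lower and 1 or 2 higher at an unadjusted p under 0.05, against 11 and 2 with all 6 libraries. With all 6 libraries 3820 of the 14229 genes tested had an unadjusted p under 0.05, in either direction. Voom on recovered reads called those 4 members and also Npc1 and Fads2, both lower.

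The sequences that bear on the comparison are those of the microRNA and of its matches in the members. miR-9-3p silences messenger RNAs mainly through its seed, bases 2 to 8, which pairs with sites in 3′ untranslated regions. RefSeq (GRCm38.p6) gives 1 mature sequence from 3 loci on the plus strand, chr3:88215652-88215673, chr7:79505318-79505339 and chr13:83738858-83738879, shown with its seed in capitals.
mmu-miR-9-3p: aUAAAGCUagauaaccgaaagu

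A match was defined as the complement of bases 2 to 8 (AGCTTTA) or of bases 2 to 7 followed by A (GCTTTAA), in the longest annotated 3′ untranslated region of each gene (GENCODE M21, GRCm38). Such a match was present in 5 of 35 members (14.3%) and in 2585 of 12205 tested genes with a sequence (21.2%), and the median length searched was 1566 bases in members and 1426 in all tested genes. The 5 members were Scd1, Idi1, Tm7sf2, Hsd17b7 and Npc1. Scd1, the member with the lowest fold change, was the only member with the 8-base match (bases 2 to 8 followed by A), which 597 tested genes (4.89%) also had. Its site starts at base 259 of a region of 3464 bases, in the 3′ untranslated exon at chr19:44397642-44397671 on the minus strand. The Npc1 site is not shown. Matching bases are in capitals, and Scd1 is printed because it fell and the others because they did not pass the test. Those of the others lie at chr13:8891528-8891556 and chr13:8892208-8892236 (Idi1, plus strand), chr19:6066560-6066588 (Tm7sf2, minus strand) and chr1:169949858-169949886 (Hsd17b7, minus strand). The Tm7sf2 site lies nearer the start of the gene (chr19:6062821-6068373) than its 3′ end. Whether these bases are untranslated in other transcripts of Tm7sf2 was not tested.
Scd1: ttttgcacaacAGCTTTAAataataacaat
Idi1 first site: cttgattttgtGCTTTAAccatcctgaaa
Idi1 second site: gctctttagacAGCTTTAttcttaagtgc
Tm7sf2: ccactctcaccAGCTTTAtcttcagcctc
Hsd17b7: tgatagagggtGCTTTAAaaaaaaattac

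The log2 fold changes of the 5 members with a match were -1.02 for Scd1, -0.14 for Idi1, -0.33 for Tm7sf2, 0.18 for Hsd17b7 and -0.33 for Npc1. Insig2 and Msmo1, which fell, had no match in the window searched, and neither had Acaca. A match is a description of the letters, and binding was not measured.

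The promoters of these genes are known for sterol regulatory elements and for CCAAT boxes, which bind the factor NF-Y beside SREBP. RefSeq windows of 300 bases (250 before to 50 after a start, GRCm38.p6) were available for 26 of the 35 members. On either strand, the letters CCAAT occurred in at least 1 window of 20 of the 26 members (76.9%) and of 11096 of 27025 genes (41.1%). The sterol element letters TCACNCCAC occurred in 1 of the 26 (3.85%), Hmgcs1, and in 388 of 27025 genes (1.44%), and no match of one motif overlapped a match of the other in the windows shown. Other forms of the sterol element were not searched. The 27025 genes are all those with a window, tested for expression here or not. The Hmgcs1 window (chr13:119690101-119690400, plus strand) is shown because it holds both motifs, with the sterol element at position -137 from the start. The Msmo1 window (chr8:64733529-64733828, minus strand) is shown because Msmo1 fell, and it holds 3 CCAAT boxes and none of the sterol letters. Capitals mark the motifs, with ATTGG as the CCAAT box on the other strand.
Hmgcs1: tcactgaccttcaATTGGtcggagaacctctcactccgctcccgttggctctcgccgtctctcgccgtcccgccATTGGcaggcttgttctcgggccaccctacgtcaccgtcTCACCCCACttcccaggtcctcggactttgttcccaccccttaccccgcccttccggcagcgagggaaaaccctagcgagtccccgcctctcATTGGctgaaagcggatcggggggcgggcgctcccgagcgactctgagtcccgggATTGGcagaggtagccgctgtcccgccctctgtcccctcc
Msmo1: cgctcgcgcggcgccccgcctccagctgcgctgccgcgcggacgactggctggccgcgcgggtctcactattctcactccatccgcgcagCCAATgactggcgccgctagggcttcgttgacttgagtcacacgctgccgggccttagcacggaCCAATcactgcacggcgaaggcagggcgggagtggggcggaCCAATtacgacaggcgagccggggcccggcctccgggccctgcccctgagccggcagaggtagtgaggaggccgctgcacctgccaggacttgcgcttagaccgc

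The genes of these windows had log2 fold changes of 0.03 (Hmgcs1) and -0.48 (Msmo1), and the difference between them was not tested.

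RNA of other cell types was present and varied between libraries. The recovered depth was 16001205 to 17936453 reads per library, and the member counts behind the FPKM values ran from 111 reads (Fdps) to 68656 reads (Scd2). All 11 neuron markers passed the filter, with summed levels of 724 to 1145 FPKM in control and 1033 to 1308 FPKM in miR-9-3p, and 1 of them, Map2, was called higher (log2 fold change 0.65, adjusted p = 0.0374 by limma) and 0 lower. All 9 markers of alveolar type 2 cells, lung cells that synthesize surfactant lipid, passed too, with Sftpc at 401 to 4571 FPKM and none at 0. Their summed level was 1072, 1669 and 5723 FPKM in control libraries 1, 2 and 3 and 1709, 625 and 501 FPKM in miR-9-3p libraries 1, 2 and 3. The lung level used below, the median log2(FPKM + 1) of these markers, was 1.63 lower in the miR-9-3p group (exact permutation p = 0.2, two-sided, where 3 against 3 libraries cannot give less than 0.1). The 11 astrocyte markers summed to 499 to 586 FPKM in control and 362 to 404 FPKM in miR-9-3p, without overlap, and 2 of them were called lower and 0 higher. They did not move as 1 set. Groups were apart for 7 that were lower (background 16.7%) and for 2 that were higher (background 18.2%), Slc1a3 and Slc1a2. In all, 3 had a log2 fold change above 0 and 8 below. Of 10 oligodendrocyte lineage markers 1 was called higher and 1 lower, with sums of 324 to 515 FPKM in control and 216 to 323 FPKM in miR-9-3p. Of 8 microglia and macrophage markers 3 passed the filter (sums of 5.49 to 21.87 FPKM in control and 2.31 to 6.84 FPKM in miR-9-3p). Of 5 adipocyte markers 1 did (sums of 1.06 to 8.91 and 0.187 to 2.34 FPKM), with Lep listed at 0 in all libraries but control 3. Summed levels in control and miR-9-3p were 3725 to 17555 and 1166 to 5250 FPKM for 6 airway markers, 153.7 to 960.0 and 119 to 283 FPKM for 5 blood markers, and 51.2 to 193 and 18.7 to 54.7 FPKM for 7 endothelial, mural and fibroblast markers, with 0 of these markers called by limma and 3, all lower, at an unadjusted p under 0.05. In bulk RNA, fewer cells of a type and less RNA per cell cannot be told apart.

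**Figure D1:**
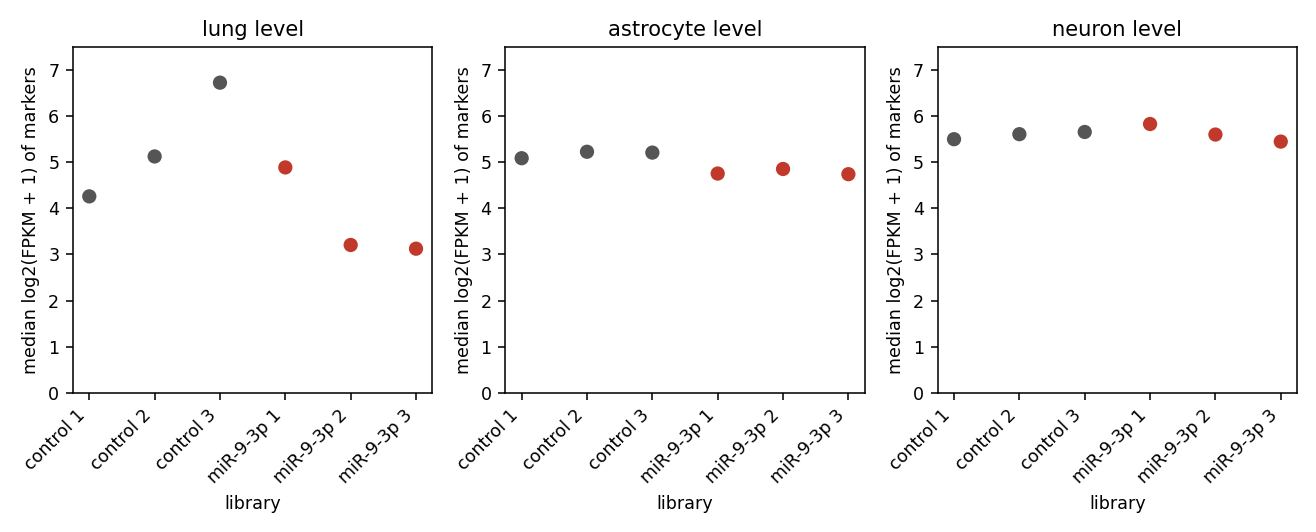
Median log2(FPKM + 1) of the alveolar type 2 (lung), astrocyte and neuron markers in each library, 1 point per library, control AAV in grey and miR-9-3p AAV in red. The lung level runs from 3.13 to 6.73 and is highest in control library 3 and, within its group, in miR-9-3p library 1, while the astrocyte level is 4.75 to 4.86 in miR-9-3p and 5.09 to 5.23 in control.

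Levels within the groups were set beside these differences. Control library 3 and miR-9-3p library 1, the libraries with the most lung RNA in their groups, both held the lowest value of their group for 17 of the 35 members (48.6%) and for 31.2% of all tested genes. The 17 include Srebf1, Srebf2, Scap, Fasn, Mvk, Mvd and Dhcr7. They both held the highest value for 5 members (14.3%, against 25.6% of all tested genes), Scd1, Insig2, Npc2, Abca1 and Hsd17b7. In a limma fit that includes the lung level, 18 members were called lower (51.4%, background 18.3%) and 2 higher (5.71%, background 13.3%), and the median was -0.36 for members and -0.05 for all tested genes. The 4 calls above were among these 20. The part of lung RNA in the member results was not tested beyond these values.

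**Figure D2:**
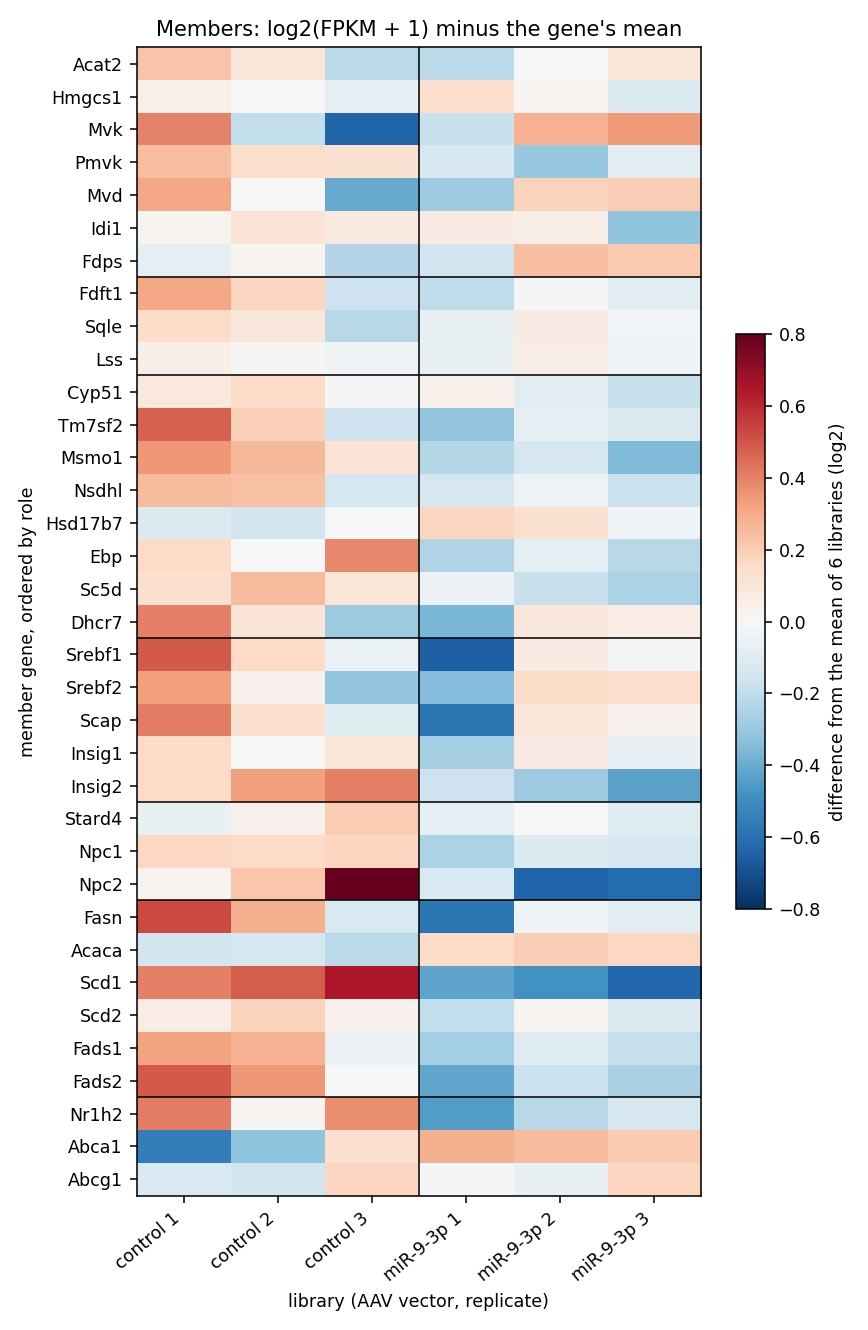
Level of each member in each library as log2(FPKM + 1) minus the gene's mean over the 6 libraries, with lines between the role groups and between the vectors. Scd1, Insig2 and Npc1 are above their mean in all control libraries and below it in all miR-9-3p libraries, while Srebf2 and Mvk vary as much within as between the groups.

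The mevalonate steps, from acetyl-CoA to farnesyl diphosphate, showed 0 calls in either direction among 7 genes by limma and by voom. The median log2 fold change was 0.03, and 1 gene was lower at an unadjusted p under 0.05, a limit that 3820 of the 14229 genes tested met. In the limma fit that includes the lung level 3 of the 7 were called lower, Acat2 (-0.36, adjusted p = 0.0132), Pmvk (-0.37, adjusted p = 0.0393) and Mvd (-0.40, adjusted p = 0.0085), and the median was -0.29. That fit called 18.3% of all tested genes lower, and their median was -0.05. Hmgcs1, the synthase that makes HMG-CoA and the second most abundant member, stood at 188.5, 182.9 and 174.4 FPKM in control and 200.7, 186.0 and 169.7 FPKM in miR-9-3p. The values interleaved, with a log2 fold change of 0.03 (± 0.10 SE, adjusted p = 0.901 by limma). Pmvk, phosphomevalonate kinase, had the lowest p of these genes, with 37.58, 34.86 and 34.31 FPKM in control and 28.69, 25.34 and 29.66 FPKM in miR-9-3p. Its groups did not overlap, but it missed the threshold (log2 fold change -0.34 ± 0.09 SE, adjusted p = 0.0813 by limma). Acat2, the cytosolic thiolase, Mvk, mevalonate kinase, Mvd, the mevalonate diphosphate decarboxylase, and Idi1, the isopentenyl diphosphate isomerase, had values between -0.14 and 0.29, and each overlapped between the groups.

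Some of these levels are uncertain because other loci share their sequence. In Acat2 45.9% of 50-base windows of the longest transcript also occur in another gene, mainly Acat3, which stood at 0.184 to 0.488 FPKM. In Idi1 the share was 30.5%. Fdps, farnesyl diphosphate synthase, shares 26.7% of its exon bases with Gm43738 on the same strand, which had a mean of only 0.00353 FPKM. Of the 50-base windows of Fdps 11.7% also occur in other genes, mainly Gm43738, Gm3571 and Gm7979. How reads were divided was not tested, so the Fdps level of 1.49 to 2.45 FPKM is uncertain (log2 fold change 0.19, adjusted p = 0.431 by limma).

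The squalene and lanosterol steps also had 0 calls among 3 genes by limma and by voom, and 0 with an unadjusted p under 0.05. The limma fit that includes the lung level called Fdft1 lower (-0.45, adjusted p = 0.0131), as it did 18.3% of all tested genes. Sqle, squalene epoxidase, stood at 51.94, 49.91 and 40.13 FPKM in control and 44.99, 49.08 and 46.13 FPKM in miR-9-3p (log2 fold change -0.01 ± 0.12 SE, adjusted p = 0.966 by limma). Its miR-9-3p values lay within the control range. Fdft1, squalene synthase, stood at 57.21, 51.91 and 40.87 FPKM in control and 39.92, 45.56 and 43.08 FPKM in miR-9-3p. Control library 3 lay among the miR-9-3p values, and the log2 fold change was -0.21 (± 0.14 SE, adjusted p = 0.375 by limma). Fdft1 shares 18.3% of its exon bases with Ctsb on the opposite strand, a lysosomal protease gene at 44.8 to 64.4 FPKM, and whether counting used strand is not stated in the sources used here. Lss, lanosterol synthase, varied least of the 3, from 13.85 to 15.03 FPKM over all libraries (log2 fold change -0.02).

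Of the 8 genes from lanosterol to cholesterol, 1 fell (background 2.4%), 0 rose (background 3.89%) and 7 did not pass, and the median log2 fold change was -0.28. Msmo1, the methylsterol monooxygenase that starts removal of the C4 methyl groups, stood at 38.06, 35.74 and 32.18 FPKM in control and 25.17, 26.97 and 23.01 FPKM in miR-9-3p. Every control value was above every miR-9-3p value, with a log2 fold change of -0.48 (± 0.10 SE, adjusted p = 0.0484 by limma). Among the 15 alternatives that kept all libraries or left out the highest lung library of each group, 10 called Msmo1. The call ended with quantile normalization (adjusted p = 0.0542), without an intensity trend (0.0546), with no filter (0.0936), with the replicate block (0.26) and with the astrocyte level as a covariate (1), at log2 fold changes of -0.50 to -0.43.

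The neighbours of Msmo1 in the pathway lay in the same direction without passing. Sc5d, the sterol C5-desaturase, stood at 32.94, 36.15 and 32.22 FPKM in control and 29.15, 26.55 and 25.05 FPKM in miR-9-3p, without overlap (log2 fold change -0.32 ± 0.10 SE, adjusted p = 0.0967 by limma). Cyp51, the lanosterol demethylase and the most abundant of these genes, stood at 67.35, 70.55 and 62.63 FPKM in control and 65.03, 59.75 and 55.78 FPKM in miR-9-3p, and the groups overlapped (log2 fold change -0.15 ± 0.10 SE, adjusted p = 0.358 by limma). Ebp, the sterol isomerase, did not overlap between the groups at a log2 fold change of -0.36. Tm7sf2, a sterol reductase gene, had -0.33, Nsdhl, which acts with Msmo1 in removing the methyl groups, -0.23, and Dhcr7, the last reductase, -0.14. Tm7sf2 shares 12.1% of its exon bases with Vps51 on the same strand. Vps51 had a mean of 11.2 FPKM and Tm7sf2 8.95 FPKM, so the level of Tm7sf2 is uncertain. Hsd17b7, the ketosteroid reductase of the same demethylation, was the exception in direction at 0.18 (limma adjusted p = 0.261).

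**Figure D3:**
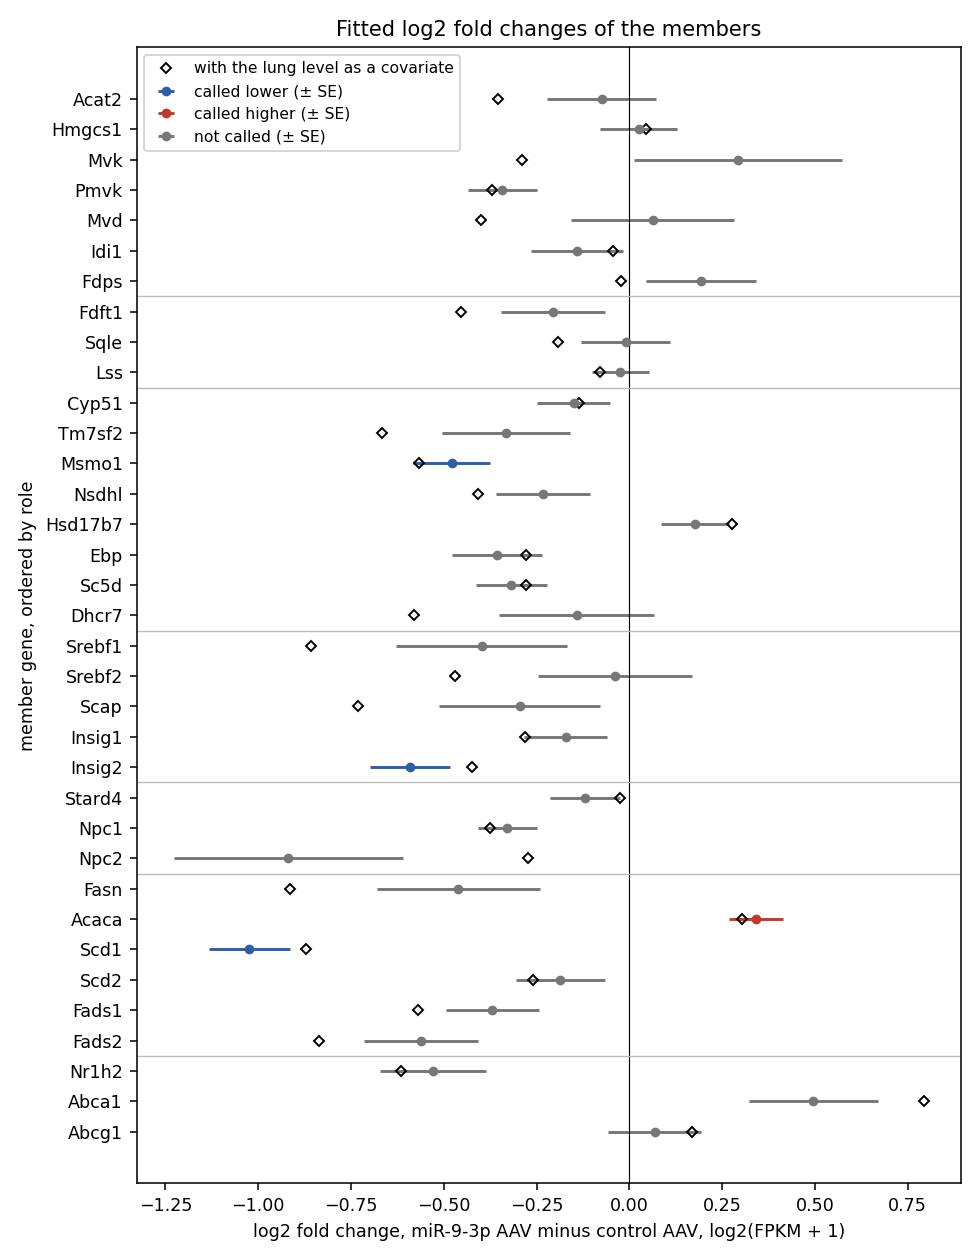
Fitted log2 fold change (miR-9-3p AAV minus control AAV, on log2(FPKM + 1)) of each member with its standard error, coloured by call, and as open diamonds the value in the fit that includes the lung level. Scd1 lies lowest at -1.02, the mevalonate genes lie around 0, and the diamonds of Srebf1, Scap and Fasn lie further below 0 than their circles.

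Among the SREBP factors and their control genes 1 of 5 fell and 0 rose, where 2.4% and 3.89% of all tested genes did. All 5 log2 fold changes were below 0, as were 52.7% of those of all tested genes, and the median of the 5 was -0.30. Srebf2 turned to 0.02 with quantile normalization. Insig2, one of the pair of INSIG proteins that hold SCAP in the endoplasmic reticulum, stood at 10.24, 11.65 and 12.32 FPKM in control and 7.98, 7.252 and 6.5 FPKM in miR-9-3p. The groups were apart, with a log2 fold change of -0.59 (± 0.11 SE, adjusted p = 0.0359 by limma). Among the 15 alternatives that kept all libraries or left out the highest lung library of each group, 11 called Insig2, and 0 of the 6 fits without 1 library did. The call ended with the replicate block. It also ended with the exon length trend removed (-0.53, adjusted p = 0.0821), with no filter (-0.59, adjusted p = 0.0766) and with the astrocyte level as a covariate (-0.18, adjusted p = 1). That covariate also separates the groups, and with it limma called 0 genes of the whole table (275 at an unadjusted p under 0.05). Insig1, the paralog that is itself a classical SREBP target, stood at 71.99, 64.26 and 69.03 FPKM in control and 53.41, 67.47 and 61.67 FPKM in miR-9-3p. Its values overlapped (log2 fold change -0.17 ± 0.11 SE, adjusted p = 0.363 by limma). Insig2 made up 12.45%, 15.35% and 15.14% of the summed INSIG level in control and 13.0%, 9.705% and 9.536% in miR-9-3p, and these shares overlapped (exact permutation p = 0.2, two-sided).

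The SREBP genes themselves did not pass. Srebf2 stood at 73.45, 59.73 and 46.77 FPKM in control and 45.66, 64.5 and 64.34 FPKM in miR-9-3p. The groups covered nearly the same range, with a log2 fold change of -0.04 (± 0.21 SE, adjusted p = 0.927 by limma). Srebf1, which encodes the SREBP-1 forms, stood at 39.15, 30.95 and 26.54 FPKM in control and 17.14, 28.94 and 27.42 FPKM in miR-9-3p. Its lowest value was that of miR-9-3p library 1 (log2 fold change -0.40 ± 0.23 SE, adjusted p = 0.309 by limma). Scap, the escort protein of the SREBPs, had a log2 fold change of -0.30 (limma adjusted p = 0.411). In the fit that includes the lung level, the values were -0.86 for Srebf1, -0.47 for Srebf2 and -0.73 for Scap, with limma adjusted p-values of 0.00734, 0.00685 and 0.00866. That fit called 18.3% of all tested genes lower.

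Of the 3 intracellular sterol transport genes 0 passed in limma, 2 were lower at an unadjusted p under 0.05, and 1, Npc1, was called lower by voom. Npc1, the lysosomal membrane protein that exports cholesterol, stood at 7.168, 7.099 and 7.205 FPKM in control and 5.099, 5.739 and 5.662 FPKM in miR-9-3p. The control libraries were almost equal and lay above all miR-9-3p libraries (log2 fold change -0.33 ± 0.08 SE, adjusted p = 0.0615 by limma). Npc2, its soluble partner in the lysosome, stood at 32.93, 37.86 and 71.77 FPKM in control and 29.55, 20.36 and 20.75 FPKM in miR-9-3p. The control value that stands apart is that of library 3, which has the most lung RNA (log2 fold change -0.92 ± 0.31 SE, adjusted p = 0.123 by limma). In the fit that includes the lung level, the Npc2 value was -0.27 (adjusted p = 0.143). Stard4, a cytosolic sterol carrier, had a log2 fold change of -0.12 with overlapping groups.

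Fatty acid synthesis and desaturation held the largest change. Of 6 genes 1 fell (background 2.4%), 1 rose (background 3.89%) and 4 did not pass, and the median log2 fold change was -0.42. Scd1, stearoyl-CoA desaturase 1, which makes oleic and palmitoleic acid from saturated acids, stood at 139.6, 147.7 and 165.5 FPKM in control and 78.46, 74.9 and 67.69 FPKM in miR-9-3p. The lowest control value was well above the highest miR-9-3p value, with 151 ± 13.25 and 73.7 ± 5.49 FPKM (mean ± SD, n = 3) and a log2 fold change of -1.02 (± 0.11 SE, adjusted p = 0.017 by limma). By p-value it ranked 45th of the 14229 genes tested. The call held in 13 of the 15 alternatives that kept all libraries or left out the highest lung library of each group, and ended with the replicate block (adjusted p = 0.25) and with the astrocyte level as a covariate (-0.68, adjusted p = 1). The airway transcript Bpifa1 stood at 0.939% to 0.966% of the level of Scgb1a1 in control libraries 2 and 3 and miR-9-3p library 1, and at 0 to 0.0293% in the other libraries. The log2 difference of Scd1 between the groups was -0.99 within the first set and -0.96 within the second, where 1 of the groups is a single library in each set, so these values have no replicate check.

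Scd2, the main desaturase of mouse brain and the most abundant member, did not pass. It stood at 641.0, 700.5 and 631.8 FPKM in control and 537.8, 626.0 and 571.5 FPKM in miR-9-3p, without overlap and with a log2 fold change of -0.19 (± 0.12 SE, adjusted p = 0.352 by limma) that turned to 0.05 with quantile normalization. Scd1 made up 17.89%, 17.41% and 20.76% of the summed Scd1 and Scd2 level in control and 12.73%, 10.69% and 10.59% in miR-9-3p. The difference of the mean shares, miR-9-3p minus control, was -7.35 percentage points, with every control value above every miR-9-3p value (exact permutation p = 0.1, two-sided, the smallest that 3 against 3 libraries can give). Of the 50-base windows of Scd1 4.66% also occur in other genes, mainly Scd3, Scd2 and Scd4.

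The polyunsaturated fatty acid desaturases were lower without passing. Fads2, the delta-6 desaturase, stood at 252.1, 228.3 and 178.8 FPKM in control and 134.1, 159.0 and 149.4 FPKM in miR-9-3p, with 220 ± 37.4 and 147.5 ± 12.54 FPKM (mean ± SD, n = 3). The groups did not overlap, and the log2 fold change was -0.56 (± 0.15 SE, adjusted p = 0.0813 by limma). Fads2 was called in 7 of 21 alternatives, including voom (adjusted p = 0.0457) and without control library 3 (adjusted p = 0.0433). Fads1, the delta-5 desaturase and the neighbour of Fads2 on chromosome 19, had a log2 fold change of -0.37, also without overlap (limma adjusted p = 0.126). Fasn, fatty acid synthase, stood at 123.8, 104.4 and 78.36 FPKM in control and 56.92, 83.84 and 80.49 FPKM in miR-9-3p, where control library 3 lay below 2 miR-9-3p libraries (log2 fold change -0.46, adjusted p = 0.231 by limma). In the fit that includes the lung level, Fasn was at -0.92, Fads2 at -0.84 and Fads1 at -0.57, with limma adjusted p-values of 0.00414, 0.0049 and 0.00747. The share of all tested genes called lower in that fit was 18.3%.

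Acaca moved the other way. Acetyl-CoA carboxylase 1, the step before Fasn, stood at 8.719, 8.823 and 8.304 FPKM in control and 11.01, 11.39 and 11.16 FPKM in miR-9-3p. The groups were tight and apart (log2 fold change 0.34 ± 0.07 SE, adjusted p = 0.0472 by limma). Acaca has the greatest exon length of the members, 17074 bases, and with each library's trend on exon length removed the value was 0.08 (adjusted p = 0.601). Of its 50-base windows 52.6% also occur in the processed pseudogene Gm5182, which stood at 2.801, 2.983 and 2.849 FPKM in control and 4.779, 4.783 and 4.46 FPKM in miR-9-3p. Reads of these loci may have been divided between them, so the level of Acaca is uncertain.

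**Figure D4:**
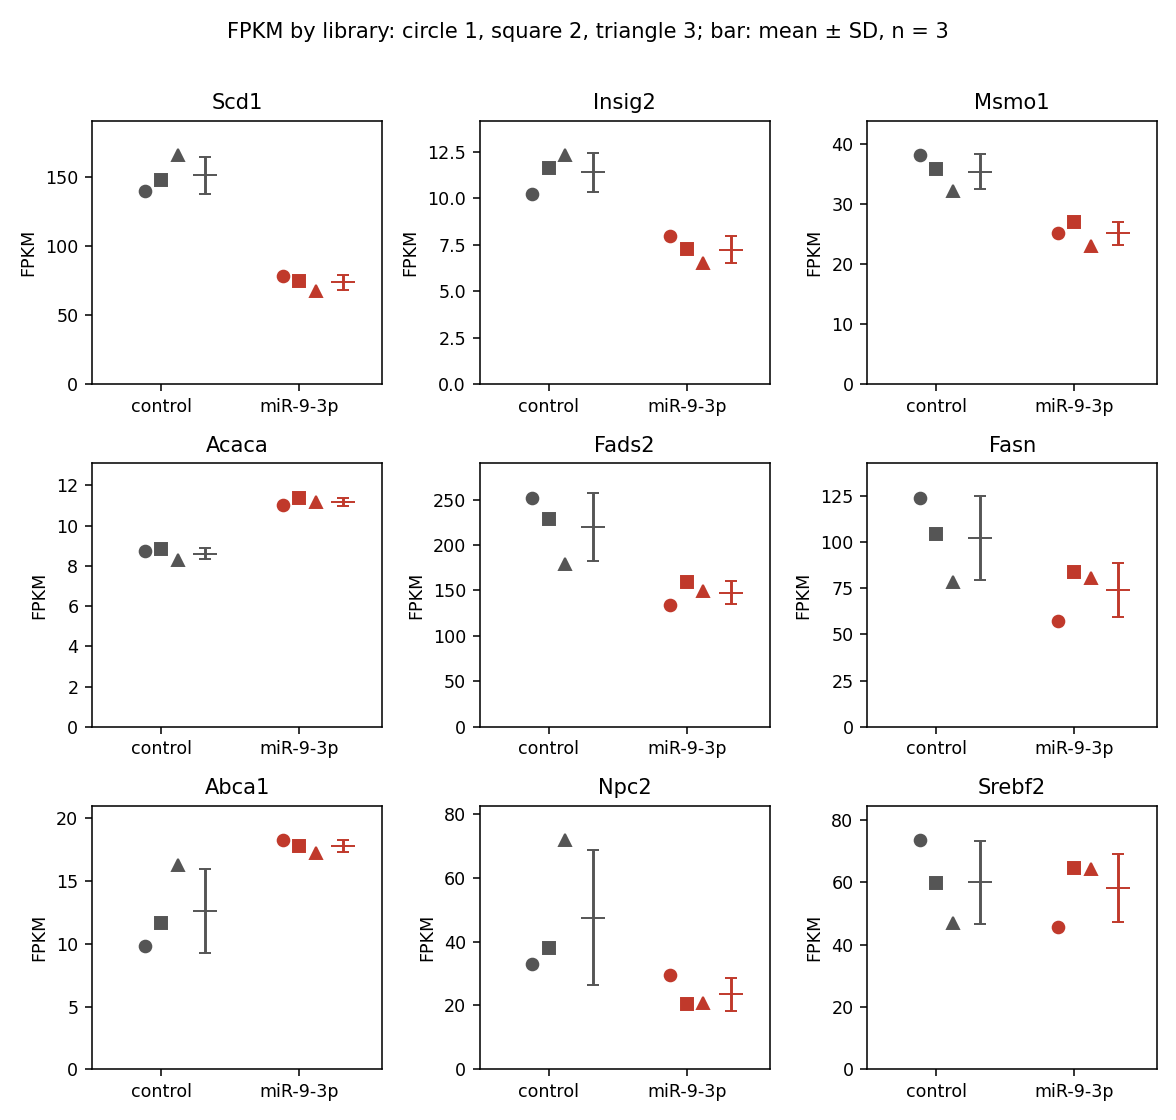
FPKM in each library for 9 members, control AAV in grey and miR-9-3p AAV in red, with symbols for replicate 1 (circle), 2 (square) and 3 (triangle) and the mean ± SD beside them (n = 3 per group, linear axes from 0). Scd1, Insig2, Msmo1, Acaca and Fads2 are apart between the groups. Npc2 and Abca1 are apart too, and within control they vary mainly in library 3. Fasn and Srebf2 overlap.

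Of the 3 genes of LXR and sterol export 0 passed in limma or voom, and 1 was higher and 1 lower at an unadjusted p under 0.05. That limit was met by 3820 of the 14229 genes tested. Abca1, the exporter that loads cholesterol onto apolipoproteins and an LXR target, stood at 9.8, 11.64 and 16.3 FPKM in control and 18.25, 17.83 and 17.27 FPKM in miR-9-3p. Every miR-9-3p value was above every control value, but control library 3 came close (log2 fold change 0.50 ± 0.17 SE, adjusted p = 0.133 by limma). Without that library the value was 0.69 (adjusted p = 0.039), and in the fit that includes the lung level it was 0.79 (adjusted p = 0.0104). The fit with the lung level called 13.3% of all tested genes higher. Nr1h2, the gene of the receptor LXR-beta, stood at 16.53, 12.33 and 16.08 FPKM in control and 8.697, 10.32 and 11.09 FPKM in miR-9-3p, without overlap (log2 fold change -0.53 ± 0.14 SE, adjusted p = 0.0778 by limma). Abcg1, another LXR target and sterol exporter, stood between 2.97 and 3.96 FPKM in all libraries, with a log2 fold change of 0.07.

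Ordered by mean FPKM over the 6 libraries, Scd2 led the members with 618 FPKM, followed by Hmgcs1 with 183.7, Fads2 with 183.6, Scd1 with 112 and Fasn with 88.0 FPKM. Fads2 was above Hmgcs1 in all 3 control libraries and below it in all 3 miR-9-3p libraries, and their means differed by less than the spread between libraries. In control the desaturases Fads2 and Scd1 stood at 220 and 151 FPKM, and in miR-9-3p at 147.5 and 73.7 FPKM, while Hmgcs1 stood at 182 and 185.5 FPKM.

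Related genes outside the members were read from 8 lists holding 109 genes, of which 108 were in the table and 101 were tested. Of these 1 was called higher (0.99%, background 3.89%) and 12 lower (11.9%, background 2.4%), and the median log2 fold change was -0.09. The 8 lists were chosen with earlier results of these data known, so their shares are descriptions and not independent evidence. Of 14 tested fatty acid oxidation genes 5 fell (35.7%, where 2.4% of all tested genes were called lower) and 0 rose. All 14 had a log2 fold change below 0, as had 52.7% of all tested genes, and the median was -0.44. Acadl, the long-chain acyl-CoA dehydrogenase, fell from 55.4 ± 3.41 to 23.85 ± 3.16 FPKM (mean ± SD, n = 3, log2 fold change -1.19, adjusted p = 0.017 by limma). The trifunctional protein gene Hadhb had -0.56, and the acyl-CoA dehydrogenase genes Acadvl and Acadm had -0.43 and -0.41.

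Of 23 tested lipogenic genes outside the members 5 fell (21.7%, background 2.4%) and 0 rose (background 3.89%), with a median of -0.07. Acss2, the cytosolic acetyl-CoA synthetase and an SREBP target, fell from 6.78 ± 1.20 to 2.89 ± 0.187 FPKM (mean ± SD, n = 3, log2 fold change -0.99, adjusted p = 0.0228 by limma). Thrsp, a lipogenesis regulator, fell by 0.94 on the log2 scale, the fatty acid elongation reductase Hsd17b12 by 0.87 and the elongase Elovl5 by 0.61. Of 8 tested lipoprotein receptor and uptake genes 1 rose and 1 fell, where 3.89% and 2.4% of all tested genes did. Lrp8, a receptor for reelin and lipoproteins on neurons, rose from 11.9 ± 0.875 to 16.4 ± 0.610 FPKM (log2 fold change 0.44, adjusted p = 0.0414 by limma), and Lrp5 fell from 4.43 ± 1.32 to 2.04 ± 0.174 FPKM (log2 fold change -0.81, adjusted p = 0.0492 by limma).

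Of 12 other LXR and sterol export genes 1 fell and 0 rose, where 2.4% of all tested genes fell and 3.89% rose. The gene that fell was Rxra, which encodes an RXR partner of the LXRs (log2 fold change -0.57, adjusted p = 0.0457 by limma). The other 4 lists had 0 calls in limma. Among 9 tested genes of SREBP proteolysis and sterol-regulated degradation the lowest p-values were those of Paqr3 (0.41, limma adjusted p = 0.0798) and Mbtps2, the site-2 protease (0.23, limma adjusted p = 0.128), as log2 fold changes, and 2 genes had an unadjusted p under 0.05. Among 15 of sterol esterification, hydroxylation and transfer they were Stard3 (-0.54, limma adjusted p = 0.0691) and Soat1, the acyltransferase that esterifies cholesterol (-0.36, limma adjusted p = 0.141), again 2 at an unadjusted p under 0.05. Among 11 of other isoprenoid steps they were Rabggtb (-0.29, limma adjusted p = 0.101) and Fnta (-0.28, limma adjusted p = 0.126), the 2 under that limit. Among 9 of peroxisomal lipid synthesis they were Far2 (0.32, limma adjusted p = 0.116), the 1 gene under it, and Far1 (0.41, limma adjusted p = 0.19).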

How the data were processed

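The authors deposited 1 table with an FPKM column for every library, per the file headers. The submitters' processing notes name HISAT2, Cufflinks 2.2.1 and mm10 without saying what each was used for. Neither the annotation nor the strand setting is stated in the sources used here. An FPKM is relative to the library total, so abundant foreign RNA lowers all other values. GENCODE M21 (GRCm38) supplied exon lengths, positions and, for 52083 of 55416 identifiers, symbols. Reads were recovered from the steps between low values, and 98.05% to 98.14% of values came out whole (within 0.01). Each library pair differed by more than counting noise. The test was limma 3.58.1 (R 4.3.3; empirical Bayes with intensity trend, no covariate) on log2(FPKM + 1), a scale that understates changes of low genes. It ran on the 14229 genes reaching 1 FPKM in 3 or more libraries, with Benjamini-Hochberg adjustment over all of them, and was checked on simulated data. The members and lists were chosen with earlier results of these data known. In each role group full values are given for called members and, among the rest, for the most abundant member and that with the lowest p, besides Srebf1, Srebf2, Insig1 and Insig2. In each related list up to 4 called genes of greatest change are named, or, where none was called, the 2 of lowest p. Spring1, a related gene, was not analysed here. Alternatives covered pairing, pseudocount, filters, scaling, weights, left-out libraries, lung and astrocyte levels, length and GC trends (GC of the longest transcript), voom and a minimum fold change.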

Additional observations from a re-analysis of the deposited data

How the results depend on the processing

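The counts of called members were 1 higher and 3 lower. They were 0 and 0 with the replicate block (limma, 2213 genes of the table at an unadjusted p under 0.05, 0 called), where the deviations of libraries sharing a number correlated at -0.649, 0.111 and -0.535, so the numbers were not taken as pairs. They were 0 higher and 1 lower with no filter, 0 and 2 with no intensity trend, 4 and 15 with array quality weights, 2 and 18 with the lung level, 0 and 0 with the astrocyte level, 1 and 9 with the lung set as a term, 1 and 7 when each group's library with the most lung RNA was dropped, 0 and 3 with the exon length trend removed, 1 and 7 with the GC trend removed, 1 and 5 in voom, and 0 higher at an absolute log2 fold change of at least 0.5. Of the 14229 genes tested, 554 were called higher and 341 lower in the reported fit. With array weights these numbers were 3183 and 3262, and with the lung level 1894 and 2598. They were 1410 and 1243 with the lung set, and 787 and 853 when each group's library with the most lung RNA was dropped. With the GC trend removed they were 1289 and 1055, of 14095 genes. Leaving out 1 library gave 0 to 1 members called higher and 0 to 3 lower. The median member log2 fold change was -0.36 with the lung level against -0.19 without, and from -0.26 to -0.16 when 1 library was left out. The lung level difference was then -2.21 to -0.96. The share of members with a seed match was 14.3%, and 2.86% with the 8-base match alone.

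The related lists had 1 called higher and 12 lower. The numbers were 0 and 0 with the replicate block and with the astrocyte level, 0 and 2 with no filter, 18 and 37 with array weights, 10 and 29 with the lung level, 5 and 19 with the lung set, and 4 and 19 with the GC trend removed. Calls higher were 3 with a filter of 5 FPKM, 2 each with quantile normalization, median-of-ratios scaling and voom, and 0 at the minimum fold change. Calls lower were 7 each with quantile normalization and with the length trend removed. For array weights, the lung level, the lung set and the GC trend, the whole-table counts given above stand beside these numbers. Leaving out 1 library gave 0 to 0 higher and 0 to 8 lower.

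Signs turned for these members, given as log2 fold changes, whose values in the reported fit lay between -0.19 and 0.29. With quantile normalization Sqle was 0.036, Lss 0.008, Srebf2 0.019 and Scd2 0.054. With array weights Hmgcs1 was -0.006, Lss 0.011, Srebf2 0.072 and Insig1 0.002. With the lung level Mvk was -0.29, Mvd -0.40 (limma adjusted p = 0.0085) and Fdps -0.022, and with the lung set Mvd was -0.104. With the astrocyte level Hmgcs1 was -0.05, Mvk -0.871, Mvd -0.516, Idi1 0.299, Lss 0.009, Stard4 0.296 and Scd2 0.179. Without the highest lung libraries Hmgcs1 was -0.063. With the length trend removed Acat2 was 0.03 and Abcg1 -0.014, and with the GC trend removed Hmgcs1 was -0.031 and Srebf2 0.03. With 1 library left out Acat2 ranged from -0.201 to 0.022, Sqle from -0.122 to 0.060, Dhcr7 from -0.322 to 0.023, Srebf2 from -0.202 to 0.125, Lss from -0.055 to 0.000, Hmgcs1 from -0.033 to 0.087 and Mvd from -0.124 to 0.234. The causes were not tested. Scd1, Insig2, Msmo1 and Acaca kept their direction in all 21 alternative fits. They were called in 14, 11, 11 and 9 of these fits, in that order.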
